A study of Rattus norvegicus with 9 samples.

Results

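The PHL + CMS group was compared with the Veh group, the unstressed state, in RNA from the medial prefrontal cortex (mPFC) of rats. The 6 libraries of this comparison, 3 per group, were chosen by the treatment in their labels out of the 9 libraries of the series. The other 3 libraries form the Veh + CMS group, and their values are given beside the members where they help to place them. Chronic mild stress (CMS) is a schedule of varied, unpredictable stressors, and phloretin (PHL) is a dihydrochalcone found in apples. All groups were male Sprague-Dawley rats. The Veh group received vehicle and no stress, the Veh + CMS group vehicle with 3 weeks of stress, and the PHL + CMS group PHL with the same stress. By the methods of the study, PHL was given for 2 weeks before the stress and on through it, and 20 mg/kg was the dose chosen for work in vivo, although the labels of these libraries state no dose. No library came from rats given PHL without stress, so effects of PHL itself and of stress under PHL cannot be told apart in this comparison. The question was what stays different from the unstressed state when PHL and stress are given together.

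The mPFC is a cortical area that takes part in the control of mood and of the response to stress, and its pyramidal neurons are known to lose spines under repeated stress. Neurons there draw their energy mainly from oxidative phosphorylation, in which respiratory complexes I, III and IV pump protons across the inner mitochondrial membrane and ATP synthase (complex V) uses the gradient. Stress hormones act through the glucocorticoid receptor, a transcription factor that switches on genes such as Sgk1 and Pdk4, and recent neuronal activity is read from immediate early genes such as Fos, Arc and Npas4.

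The files gave FPKM, that is fragments per gene divided by its length and by library depth, for 34463 genes. Multiplied by gene length they returned whole reads, 13913639 to 16280963 per Veh library and 14859419 to 16960004 per PHL + CMS library. A gene entered the test if its FPKM averaged 0.5 or more across all libraries, which 16159 did, and the test was that of limma on log2(FPKM + 0.1). Fold changes below are on that scale, where genes of low level show less than their true change, and a negative value means a lower level in the PHL + CMS group. Defining markers of cortical excitatory neurons were present in every library: Slc17a7, the main vesicular glutamate transporter of cortex, was at 495 to 631 FPKM in Veh and at 558 to 600.0 in PHL + CMS. Within the Veh group, replicate 3 stood apart in markers of striatum, a region next to cortex. Within the PHL + CMS group, replicate 2 stood apart in markers of oligodendrocytes. Where the median of a list turns on a single library, its value without that library is given. Whether each library is a separate animal is not in the labels, so the p-values take in only how these libraries vary, which may be technical in part. In bulk tissue, fewer cells of a type and less RNA per cell cannot be told apart.

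No gene differed between PHL + CMS and Veh past the threshold. At a Benjamini-Hochberg adjusted p under 0.05, limma called 0 of 16159 genes (0%), and the lowest adjusted p was 0.235. The same count was 0 with voom, the count-based model of limma run on the recovered reads. Without adjustment, 1741 genes had p under 0.05, of which 807 were higher (4.99% of genes tested) and 934 lower (5.78%). With a change of at least 1.5-fold as well, 182 were higher (1.13%) and 196 lower (1.21%), and these became 200 and 139 once a trend with gene length, described below, was removed. The 3 PHL + CMS libraries all lay above the 3 Veh libraries for 1417 genes (8.77%) and all below them for 1418 (8.78%). In the same fit, Veh + CMS against Veh gave 613 genes (3.79%), 428 higher and 185 lower. The median size of a change, whatever its sign, was 0.15 between PHL + CMS and Veh and 0.20 between Veh + CMS and Veh. The genes described from here on are therefore given by their values and by unadjusted p as a way of ordering them, and none of them is a call.

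Among the genes with the smallest p, those on the lower side included genes for small proteins of mitochondria, ribosomes and the proteasome. Lamtor5 (ENSRNOG00000018186), a subunit of the Ragulator complex that anchors mTORC1 to lysosomes, was at 61.6, 62.5 and 60.7 FPKM in the 3 Veh libraries and at 44.8, 41.9 and 45.9 in the 3 PHL + CMS libraries. The groups lay far apart for a small difference, with a log2 fold change of -0.48 (SE 0.06) and a p of 3.47e-05 (limma, adjusted p = 0.235). LOC684509, a predicted coding gene with no name, had the smallest p of all, with 22.5, 20.6 and 22.6 FPKM in Veh and 8.04, 4.45 and 6.01 in PHL + CMS, a log2 fold change of -1.85 (SE 0.24). Tomm7, a small subunit of the pore through which proteins enter mitochondria, was at 193, 205 and 210.3 FPKM in Veh and 109.6, 117 and 134 in PHL + CMS. Its groups did not overlap either, and the log2 fold change was -0.76 (SE 0.12). Lsm7, part of a ring of proteins on U6 snRNA, Pigp, which acts in the making of GPI anchors, Gtf2h5, a small subunit of TFIIH, and Sem1, a proteasome subunit, stood at -0.51, -0.47, -0.43 and -0.65. The rest of the 15 were Atp5pd, Cox7c, Rpl27, Ndufa13 and Rps28, given with their complexes, 1 further coding gene known by a clone name only, 1 pseudogene, and a mitochondrial tRNA gene that was at 0 in all PHL + CMS libraries and held only a few reads in Veh. That tRNA gene could pass the filter only through libraries of the other groups.

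Of the 66 nuclear-encoded genes of the respiratory chain that were tested, 65 lay below 0, with a median log2 fold change of -0.26. In 48 of them p was under 0.05, all lower, against 5.78% of all genes on the lower side, and in 46 the groups did not overlap, against 8.78%. The median over all genes tested was 0.00. Complexes were read from gene symbols, so Ndufa4 (-0.48), a complex IV subunit despite its symbol, is counted under complex I. Complex I, which takes electrons from NADH, had 34 of 35 genes below 0 and a median of -0.26. Complex II, which takes them from succinate, had 4 of 4 below 0 (median -0.17), complex III 9 of 9 (-0.22), complex IV, the oxidase that reduces oxygen, 9 of 9 (-0.36), and ATP synthase 8 of 8 (-0.24). Atp5pd, in the stalk of ATP synthase, is outside this list and its counts and was named above for its small p. It was at 269.9, 269 and 251 FPKM in Veh and 191, 188 and 205 in PHL + CMS, apart by -0.43 (SE 0.07). Cytochrome c, the carrier between complexes III and IV, stood at -0.16. The single gene above 0 was Ndufa1, named here after its values were seen, at 102, 2.18 and 2.97 FPKM in Veh and 251, 1.19 and 4.07 in PHL + CMS. A single library in each of these groups carried nearly all of its level, and the SE of its fold change was larger than the fold change. Some members counted below 0 also had an SE larger than the size of their fold change, the widest being Atp5pb of ATP synthase (-0.79, SE 1.25). The list is 1 of 52 chosen with earlier results of these data known, and its members share libraries, so the counts are descriptions.

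**Figure D1:**
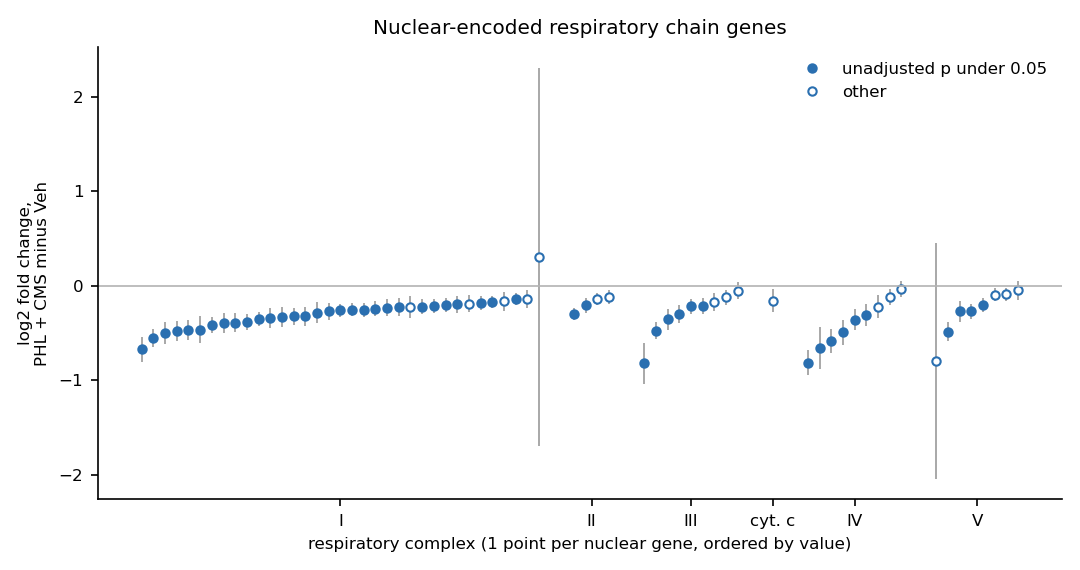
Log2 fold change of PHL + CMS against Veh (vertical axis, log2(FPKM + 0.1) scale, bars are the SE from limma) for the 66 nuclear-encoded respiratory chain genes tested, grouped by complex and ordered by value. Complexes were read from gene symbols, which puts Ndufa4 under complex I. Filled points have an unadjusted p under 0.05 (48 genes, all below 0), and 65 of the 66 points lie below 0.

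Cox7c (ENSRNOG00000030237; chr2:14699882-14701903 in Rnor_6.0), a small structural subunit of complex IV, was at 622, 649.8 and 661 FPKM in Veh and 384, 325 and 393 in PHL + CMS. All 3 PHL + CMS libraries lay well below the Veh libraries, and limma put the log2 fold change at -0.81 (SE 0.13), with an adjusted p of 0.235. In Veh + CMS the gene was at 485, 592 and 419, so these 3 libraries also lay below Veh. Ndufa13 (ENSRNOG00000020602; chr16:21275311-21282246), an accessory subunit of complex I, was at 283, 292 and 268 FPKM in Veh and 185, 182 and 206 in PHL + CMS. The groups did not overlap, with a log2 fold change of -0.56 (SE 0.10). Ndufa3, another accessory subunit of complex I, was at 202, 226 and 300.0 FPKM in Veh and 156, 147 and 146 in PHL + CMS, and Uqcrq, which binds ubiquinone in complex III, at 133, 144 and 129.7 in Veh and 98.1, 89.6 and 105 in PHL + CMS. Both were lower in every PHL + CMS library than in any Veh library, by -0.68 (SE 0.13) and -0.48 (SE 0.09) on the log2 scale. In the same fit, the nuclear respiratory list had a median of -0.26 in Veh + CMS against Veh, where 1 member was called at adjusted p under 0.05 in limma, and of -0.02 in PHL + CMS against Veh + CMS.

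The 13 protein-coding genes of the mitochondrial genome also all lay below 0, with a median of -0.26, but only 2 had p under 0.05. Mt-nd3, a complex I subunit, was at 4354, 3945 and 5106 FPKM in Veh and 1842, 2018 and 2219 in PHL + CMS, and Mt-co2, a core subunit of complex IV, at 13013, 11494 and 11750.5 in Veh and 7451, 9368 and 9386 in PHL + CMS. Both sets of libraries were apart, with log2 fold changes of -1.14 (SE 0.25) and -0.47 (SE 0.18). With quantile normalization 7 of the 13 lay above 0 and the median was 0.00. That scaling gives genes of equal rank equal values in all libraries, so it can show little change in genes of the highest levels. No direction is therefore read from it for this list. With voom 13 of the 13 lay below 0, with a median of -0.24. Without PHL + CMS replicate 1 the median was -0.09. Reads on mitochondrial genes made up 9.74% to 10.6% of reads in Veh and 6.96% to 9.09% in PHL + CMS, a mean of 10.2% ± 0.43 against 8.31% ± 1.17 (SD, n = 3 each). The ranges did not overlap, and a two-sided exact permutation test gave p = 0.1, the smallest that 3 against 3 libraries allow. In Veh + CMS the share was 9.67% to 13.9%. Other mitochondrial proteins that the nucleus encodes leaned the same way. Of 74 mitochondrial ribosomal proteins, 66 lay below 0 (median -0.18) and 29 had p under 0.05, all lower (5.78% of all genes), and of 21 Tomm and Timm import proteins 19 lay below 0 (median -0.18) and 6 had p under 0.05, all lower. With the length trend described below removed, these became medians of -0.11 with 16 lower and -0.11 with 4 lower. Mrpl50 and Mrpl13, of the large mitochondrial ribosomal subunit, and Cox17, a copper chaperone for complex IV, stood at -0.50 (SE 0.10), -0.38 (SE 0.08) and -0.49 (SE 0.09). These lists and that of 30 assembly factors for the respiratory chain (25 below 0, median -0.16) were added after the data had been seen. In Veh + CMS against Veh the ribosomal, import and assembly lists had medians of -0.19, -0.21 and -0.19. In limma 4, 3 and 0 of their members were called lower there, where 3.79% of all genes were called in either direction. In PHL + CMS against Veh + CMS the medians were 0.02, 0.03 and 0.01.

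Cytosolic ribosomal proteins, the protein part of the ribosomes in the cytosol, had 64 of 72 genes below 0, a median of -0.17, and 26 genes with p under 0.05 on the lower side (5.78% of all genes) and 2 on the higher (4.99%). Rpl27, of the large subunit, was at 357, 375 and 365 FPKM in Veh and 260.1, 279.9 and 290.5 in PHL + CMS, a log2 fold change of -0.40 (SE 0.07). Rps21, of the small subunit, was at 658, 843 and 914 in Veh and 452, 530.2 and 527 in PHL + CMS, and Rps28 at 154, 203 and 195 in Veh and 96.4, 125 and 104 in PHL + CMS. In all of these genes the 3 PHL + CMS libraries lay below the 3 Veh libraries, with log2 fold changes of -0.67 (SE 0.13) and -0.76 (SE 0.14) for the last pair. The 2 on the higher side, named after their values were seen, were Rps9 (1.70) and Rpl38 (0.77), both at low FPKM. Genes for ribosomal proteins have many near-identical copies in the genome that can share reads, so single members are uncertain. In Veh + CMS against Veh the same list had a median of 0.06, and in PHL + CMS against Veh + CMS of -0.22. With quantile normalization its median against Veh was -0.07. Without Veh replicate 3 the median was -0.11 with 10 lower, and the number lower was 11 without PHL + CMS replicate 1, 17 without PHL + CMS replicate 3 and 13 without Veh replicate 2.

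The proteasome, the protease that degrades ubiquitin-tagged proteins, had 32 of 35 genes below 0, a median of -0.17 and 12 genes with p under 0.05, all lower, against 5.78% of all genes. Psmb6, a subunit of its core, was at 148, 164 and 158 FPKM in Veh and 129.5, 123 and 132 in PHL + CMS. Psmb4, of the same core, was at 223, 228 and 227 in Veh and 197, 177 and 192 in PHL + CMS. Both genes were lower in every PHL + CMS library, by small amounts, -0.29 (SE 0.07) and -0.26 (SE 0.07) on the log2 scale. In Veh + CMS against Veh the proteasome list had a median of -0.21, and in PHL + CMS against Veh + CMS of 0.03. In PHL + CMS against Veh it had 6 lower without PHL + CMS replicate 2 and 7 without Veh replicate 2, at medians of -0.13 and -0.18. The translocon and signal peptidase list, the channel and the protease through which secreted proteins enter the endoplasmic reticulum, had 16 of 20 genes below 0, a median of -0.11 and 7 genes with p under 0.05, all lower, read against the same 5.78%. Sec61g, a small subunit of the channel, was at 108, 114 and 146 FPKM in Veh and 90.99, 75.5 and 72.8 in PHL + CMS, apart by -0.62 (SE 0.14). Spcs1, of the signal peptidase, and Srp9 and Srp19, of the particle that brings ribosomes to the channel, stood at -0.29, -0.32 and -0.30. Sod1 and Gpx1, enzymes that remove superoxide and peroxides, stood at -0.42 (SE 0.10) and -0.32 (SE 0.11) within a list of 28 antioxidant genes of the NRF2 pathway whose median was -0.04, and -0.07 without PHL + CMS replicate 1.

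The promoters of the respiratory, ribosomal and proteasome genes were read for motifs, which the comparison did not use. In the 250 bases before the start site (RefSeq, GRCr8), the letters CCGGAAG, the core bound by ETS factors such as GABPA, were found on either strand in 15 of the 58 respiratory promoters that matched by symbol (25.9%), 14 of 57 ribosomal (24.6%) and 10 of 31 proteasome promoters (32.3%). The share was 14.3% over the 10331 genes tested that matched and 7.74% over all 27457 promoters. The other motifs searched on both strands, each counted by itself also where matches overlap, were those of NRF1 (1.72%, 0% and 3.23% of the same lists, 1.65% of genes tested) and of the glucocorticoid receptor, the letters ATGGCGGC for YY1 (1.72%, 3.51% and 0%, 1.99% of genes tested) and the letters TGACGTCA for CREB. The TGACGTCA letters were in 5 of 28 promoters of immediate early genes (17.9%, against 2.85% of genes tested), and the glucocorticoid receptor motif in 0 of 23 promoters of its target genes, with 2 matches over all promoters. A match is a description of the letters and not a bound site. The 150 bases before the start are printed for 1 gene of each list that holds the letters and is described above, with the matches in capitals.
Ndufa13, chr16:19560376-19560525, plus strand: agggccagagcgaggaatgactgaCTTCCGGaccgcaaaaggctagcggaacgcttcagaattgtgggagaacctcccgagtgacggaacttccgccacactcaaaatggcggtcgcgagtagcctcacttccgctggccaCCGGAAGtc
Rps21, chr3:187723888-187724037, plus strand: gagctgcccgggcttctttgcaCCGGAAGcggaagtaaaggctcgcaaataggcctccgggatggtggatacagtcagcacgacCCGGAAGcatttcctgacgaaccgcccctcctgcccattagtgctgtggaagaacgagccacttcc
Psmb4, chr2:185134562-185134711, minus strand: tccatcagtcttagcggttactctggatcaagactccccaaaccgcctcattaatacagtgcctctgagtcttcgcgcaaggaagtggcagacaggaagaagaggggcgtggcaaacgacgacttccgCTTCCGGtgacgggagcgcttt
In Ndufa13 the matches begin 126 and 9 bases before the start, in Rps21 128 and 66, and in Psmb4 22.

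A difference with gene length ran through the comparison. Among 13737 protein-coding genes tested, the median log2 fold change was -0.18 for the 480 genes of up to 500 bases, -0.08 for those between 1000 and 1500, 0.00 between 2000 and 3000, and 0.16 for the 883 genes over 6000 bases, of which 85.5% lay above 0. The 698 coding genes with p under 0.05 on the higher side had a median length of 3866 bases, and the 836 on the lower side of 1176. Each of the 3 PHL + CMS libraries showed it, with medians of -0.15 to -0.20 for the shortest genes and 0.13 to 0.18 for the longest. These values are relative to the Veh mean, so the Veh libraries lie around 0 by construction. Only the spread of the Veh libraries, -0.04 to 0.05, can be set beside them. The Veh + CMS libraries had medians of -0.02 to -0.10 and 0.10 to 0.17 for the same genes. The respiratory genes had a median length of 718.5 bases, the ribosomal 665.5 and the proteasome 1519. With the trend removed within each library, an alternative added after seeing the data, 64 of 66 respiratory genes lay below 0 with a median of -0.17 and 30 with p under 0.05, ribosomal proteins had a median of -0.08 with 14 lower and the proteasome -0.11 with 4 lower. RNA quality and fragment sizes were not among the values used here, and their part in the trend was not tested.

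**Figure D2:**
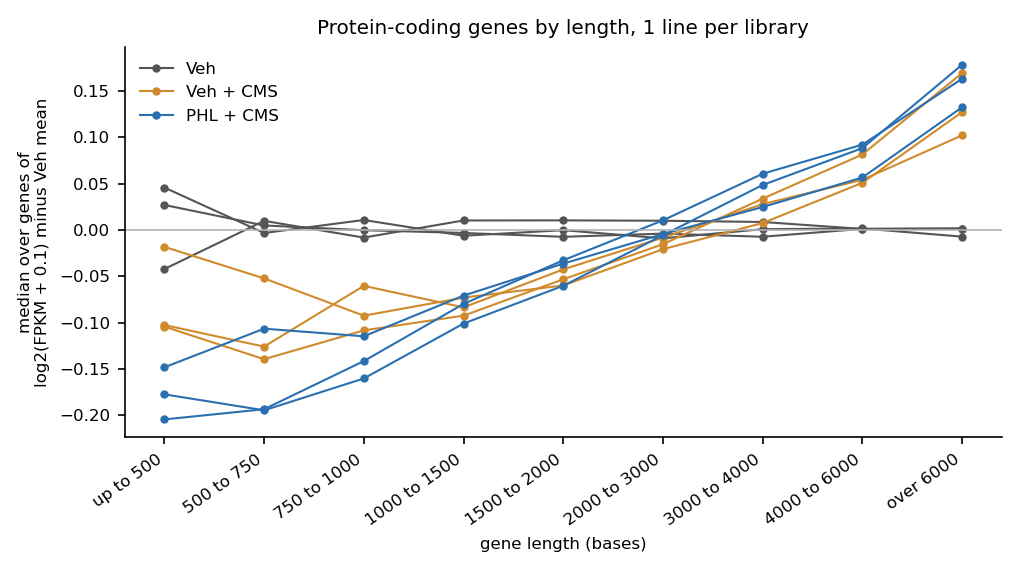
Median over protein-coding genes of log2(FPKM + 0.1) minus the Veh mean (vertical axis) for 9 classes of gene length in bases (horizontal axis), with 1 line per library. The 3 PHL + CMS lines run from -0.15 to -0.20 for genes of up to 500 bases to 0.13 to 0.18 for genes over 6000, and the Veh + CMS lines likewise but less low at the short end. The Veh lines are centred on 0 by the subtraction.

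On the higher side, the genes with the smallest p included genes of neurons, regulators of chromatin and transcription, and small RNAs. Elfn2, a synaptic adhesion protein with leucine-rich repeats, was at 28.7, 28.5 and 28.6 FPKM in Veh and 36.4, 36.8 and 36.4 in PHL + CMS. The libraries within each group were close to each other, and limma put the log2 fold change at 0.35 (SE 0.06), with an adjusted p of 0.235. Kif1a, a kinesin motor that carries synaptic vesicle precursors along axons, was at 121, 134 and 124 FPKM in Veh and 164, 159 and 156 in PHL + CMS, a log2 fold change of 0.34 (SE 0.06). Srcin1, a regulator of Src kinase at synapses, was at 45.9, 45.2 and 43.8 FPKM in Veh and 58.9, 61.5 and 55.4 in PHL + CMS, and Wdfy3, a scaffold for selective autophagy, at 11.5, 11.1 and 10.9 in Veh and 15.5, 15.8 and 13.8 in PHL + CMS. Both were higher in every PHL + CMS library, by 0.38 (SE 0.07) and 0.43 (SE 0.08). Arrdc2, Lrrc58, Klf13 and Zhx2 stood at 0.57, 0.34, 0.44 and 0.66. These were also above 0 in Veh + CMS against Veh, at 0.64 (SE 0.11), 0.47 (SE 0.07), 0.55 (SE 0.09) and 0.79 (SE 0.13), with adjusted p of 0.0295, 0.0263, 0.0263 and 0.0263 in limma. U1, a copy of the spliceosomal snRNA whose many copies can share reads, was at 1.04, 1.11 and 1.56 FPKM in Veh and 3.8, 5.96 and 4.44 in PHL + CMS. Snord8, a small nucleolar RNA, was at 0 in all Veh libraries and at 1.04, 2.29 and 3.63 FPKM in PHL + CMS, which rests on few reads. It could pass the filter only through libraries of the stressed groups, so it is no support for a difference. Of the 81 snRNA genes tested 45 lay above 0 (median 0.22), with 7 higher and 2 lower at p under 0.05. Of the 219 snoRNA genes 124 lay above 0 (median 0.17), with 10 higher and 11 lower. The shares over all genes were 4.99% higher and 5.78% lower. These RNAs are short, with a median length of 107 bases for snRNA genes and 99 for snoRNA genes. FPKM near 1, as for U1 in Veh, therefore rests on few reads, and these values are uncertain.

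All 38 chromatin regulators of a list added after seeing the data lay above 0, with a median of 0.24, and 21 had p under 0.05 (4.99% of all genes on that side). Their median length was 7664 bases, and with the length trend removed 35 lay above 0, the median was 0.11 and 6 had p under 0.05. In Veh + CMS against Veh the list also had a median above 0, at 0.17. In limma 3 members were called higher there at adjusted p under 0.05, where 3.79% of all genes were called in either direction. In PHL + CMS against Veh + CMS the median of the list was 0.08. Ahdc1, a DNA-binding protein, was at 11.01, 10.7 and 12.2 FPKM in Veh, 11.8, 10.5 and 10.1 in Veh + CMS and 16.7, 15.2 and 15.2 in PHL + CMS. Here the PHL + CMS libraries alone were high, and the log2 fold change was 0.47 (SE 0.09) against Veh and 0.53 (SE 0.09) against Veh + CMS (limma, adjusted p = 0.149 for the latter). Srrm2, a large splicing factor, and Hdac4, a histone deacetylase that moves with neuronal activity, stood at 0.39 (SE 0.08) and 0.50 (SE 0.12), the former named after its values were seen.

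The medians of the axon guidance, synaptic vesicle, postsynaptic density and glutamate receptor groups lay slightly above 0. Those of the vesicle and postsynaptic groups came to about 0 with the length trend removed. Of 47 genes for axon guidance and the Nogo receptor 34 lay above 0, with a median of 0.13 and 9 with p under 0.05, none lower (4.99% of all genes on the higher side). With single libraries left out the number higher was 2 to 8, with 2 lower without PHL + CMS replicate 1 and 1 lower without Veh replicate 3: it was 2 without Veh replicate 2, 4 without Veh replicate 1 or PHL + CMS replicate 2, and 5 without PHL + CMS replicate 1. Sema5a, a semaphorin, was at 13.6, 10.5 and 9.73 FPKM in Veh and 14.02, 17.8 and 16.5 in PHL + CMS, a log2 fold change of 0.52 (SE 0.14). Nrp1, a co-receptor for class 3 semaphorins, stood at 0.45 (SE 0.15), and Plxna1, a plexin through which semaphorins signal, at 0.28 (SE 0.10). Without the length trend the list had a median of 0.06, with 3 higher and 1 lower. In the synaptic vesicle cycle 37 of 65 lay above 0 (median 0.03), a direction that turned without Veh replicate 3 (24 of 65, median -0.05) and without PHL + CMS replicate 1 (31 of 65, median -0.01). At p under 0.05 the list had 5 members higher (7.69%, against 4.99% of all genes) and 3 lower (4.62%, against 5.78%). With the length trend removed 34 of its members lay above 0 and 31 below, with 2 higher and 1 lower at p under 0.05. Its members with the smallest p were Bsn and Pclo, the giant scaffolds of the presynaptic active zone. Bsn was at 28.7, 23.3 and 24.2 FPKM in Veh and 32.2, 33.6 and 32.6 in PHL + CMS, and Pclo at 7.87, 7.44 and 6.47 in Veh and 11.1, 8.79 and 9.15 in PHL + CMS, with log2 fold changes of 0.37 (SE 0.10) and 0.41 (SE 0.12) and groups that did not overlap. Of 32 postsynaptic density genes 24 lay above 0 (median 0.09), and of 31 glutamate receptor genes 25 (median 0.11). At p under 0.05 each of these lists had 2 members higher (6.25% and 6.45%, against 4.99% of all genes) and 0 lower. With the length trend removed 16 of the postsynaptic density genes lay above 0 and 16 below, and the glutamate receptors had 21 above 0 and a median of 0.10. Without Veh replicate 3 the glutamate receptor median was 0.06. Lrfn2, an adhesion protein that binds PSD-95, stood at 0.50 (SE 0.15), Grik3, a kainate receptor subunit, at 0.49 (SE 0.19) and Nptx1, which clusters AMPA receptors, at 0.42 (SE 0.09). The list of activity-induced effectors and BDNF, whose highest value was 0.42, had 9 of 23 above 0 and a median of -0.04. That median was 0.05 without Veh replicate 3 and 0.00 without PHL + CMS replicate 1. Excitatory neuron markers had 11 of 16 above 0 and a median of 0.11, which was 0.07 without Veh replicate 3 or PHL + CMS replicate 1. Among them Neurod2, a transcription factor of cortical pyramidal neurons, was at 35.5, 33.6 and 33.6 FPKM in Veh, 32.4, 27.7 and 29.4 in Veh + CMS and 46.4, 38.4 and 42.3 in PHL + CMS. Neurod2 was above every Veh library in PHL + CMS and below every one in Veh + CMS, with log2 fold changes of 0.30 (SE 0.09) and -0.20 (SE 0.09). Inhibitory interneuron markers had 4 of 18 above 0 and a median of -0.15, in which Slc32a1, the vesicular GABA transporter, stood at -0.27 (SE 0.12). That median was -0.06 without Veh replicate 3 and -0.24 without PHL + CMS replicate 1. Pan-neuronal markers had 3 of 15 above 0 and a median of -0.14, which ran from -0.19 to -0.01 with single libraries left out. GABA receptor genes had 10 of 21 above 0 and a median of -0.004, which ran from -0.03 to 0.08 in the same way.

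The glucocorticoid receptor and genes known to respond to it had 22 of 27 above 0, a median of 0.28, and 5 with p under 0.05, all higher (4.99% of all genes). Sgk1, a kinase induced by glucocorticoids that acts on ion transport, was at 19.4, 29.8 and 14.3 FPKM in Veh, 34.6, 29.5 and 30.1 in Veh + CMS and 40.3, 44.3 and 41.7 in PHL + CMS. All PHL + CMS libraries lay above all libraries of both other groups, with a log2 fold change against Veh of 1.05 (SE 0.22) and an adjusted p of 0.235 in limma. Pdk4, which holds back the entry of pyruvate into the citric acid cycle, was at 2.5, 4.01 and 1.21 FPKM in Veh and 4.85, 6.34 and 7.16 in PHL + CMS, a log2 fold change of 1.35 (SE 0.43). Gpd1, of glycerol phosphate metabolism and abundant in oligodendrocytes, was at 38.6, 38.04 and 54.9 in Veh, 174, 114 and 98.2 in Veh + CMS and 63.7, 106 and 90.7 in PHL + CMS, so every PHL + CMS library was above Veh and 2 of them were below the lowest Veh + CMS library. Oligodendrocyte markers, described below, were also higher in these libraries, and their part in the level of Gpd1 was not tested. Arrdc2 was described above, and Nfkbia, which holds NF-kB in the cytoplasm, was at 18.96, 20.8 and 10.8 in Veh and 21.5, 23.1 and 27.3 in PHL + CMS. Its PHL + CMS libraries lay above the Veh libraries, with a log2 fold change of 0.56 (SE 0.22), while 21 of 34 genes of the NF-kB pathway lay above 0 with a median of 0.09, and of 0.06 without PHL + CMS replicate 2. The receptor gene Nr3c1 stood at 0.04 (SE 0.10), and Fkbp5 and Tsc22d3, targets often used as a readout, at 0.10 (SE 0.24) and 0.25 (SE 0.23); these 3 were named for their role. The median of the list was 0.01 in Veh + CMS against Veh. Over the left-out libraries the median stayed between 0.21 and 0.39.

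Immediate early genes, which neurons transcribe within minutes of activity, had 28 of 40 below 0, a median of -0.26 and 6 with p under 0.05, all lower (5.78% of all genes). Npas4, a transcription factor induced by calcium entry, was at 21.8, 11.8 and 12.1 FPKM in Veh and 5.42, 4.23 and 1.06 in PHL + CMS. Every PHL + CMS library was under the lowest Veh library, and limma put the log2 fold change at -2.28 (SE 0.69), with an adjusted p of 0.331. Trib1, a pseudokinase, Ier3, a stress-induced survival factor, and Btg2, an antiproliferative factor, were lower in every PHL + CMS library too, by -0.90 (SE 0.25), -0.66 (SE 0.18) and -0.82 (SE 0.25). Arc, which takes part in the removal of AMPA receptors, was at 207, 171 and 112 FPKM in Veh and 65.2, 115 and 57.5 in PHL + CMS, named here for its role, with groups that overlapped. Fos and Nr4a1 stood at -0.58 (SE 0.38) and -0.39 (SE 0.28), both with groups that overlapped. Atf3, named as the member farthest above 0, was at 0.279, 2.83 and 0.194 FPKM in Veh and 3.21, 1.58 and 0.939 in PHL + CMS, which also overlap. In Veh + CMS against Veh the list had a median of -0.86, with 7 members called lower in limma, where 3.79% of all genes were called in either direction. The Veh group was wide for these genes, with list means of 0.12, 0.41 and -0.53 for its 3 libraries against -0.23 to -0.26 in PHL + CMS. Without Veh replicate 1 the median was -0.13, without Veh replicate 3 it was -0.56 with 19 lower, and without Veh replicate 2 it was -0.04 with 4 lower and 4 higher, so the description of this list turns on which Veh libraries are kept. Veh replicate 3 was also the Veh library high in striatal markers, and all Veh + CMS libraries were above the Veh mean in them. The part of striatal markers in these values was not tested.

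**Figure D3:**
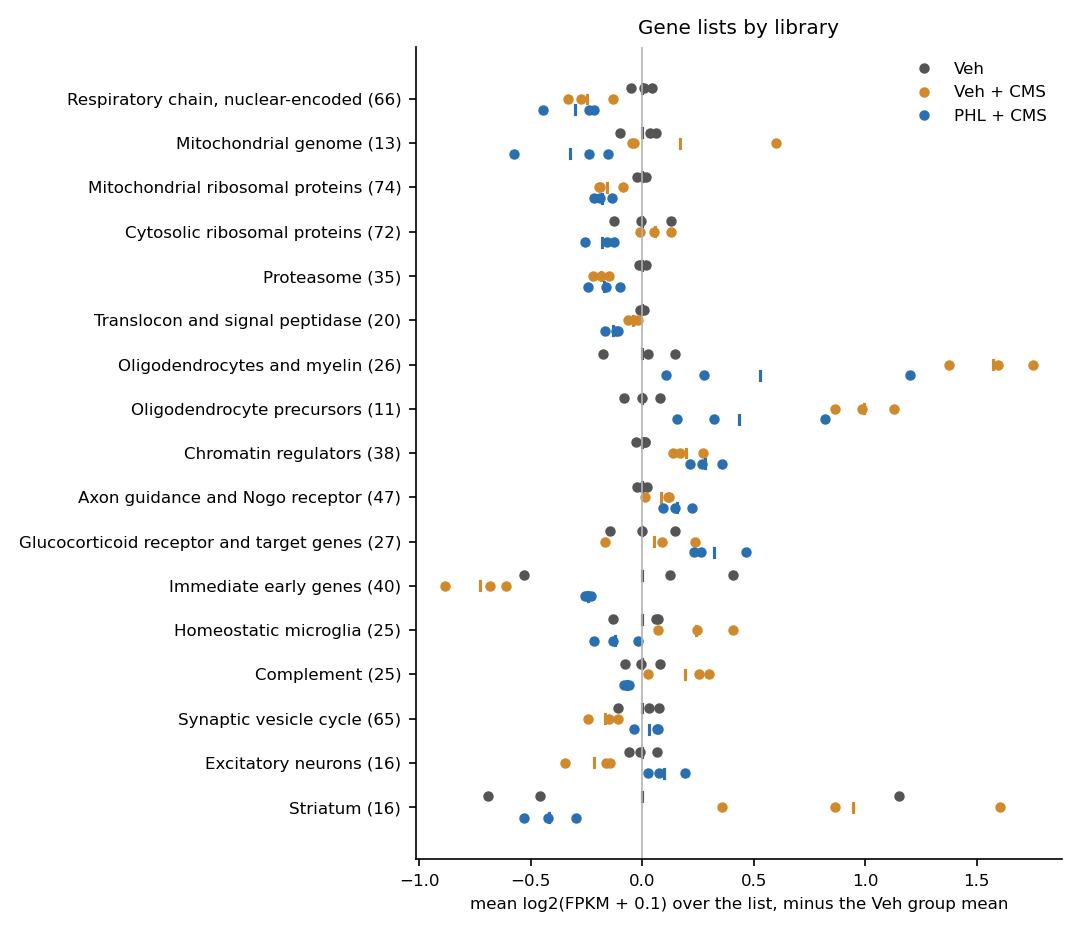
Mean of log2(FPKM + 0.1) over each list minus the Veh group mean (horizontal axis), 1 point per library and a tick at each group mean, with the number of genes tested in brackets. PHL + CMS lies below all Veh libraries for the nuclear respiratory, mitochondrial ribosomal and proteasome lists, above them for chromatin regulators and glucocorticoid target genes, and between Veh and Veh + CMS in mean for oligodendrocytes, where PHL + CMS replicate 2 stands at 1.20.

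Oligodendrocyte and myelin markers, the cells that wrap axons, were all above 0 in PHL + CMS against Veh, 26 of 26 with a median of 0.54, and 7 had p under 0.05 (4.99% of all genes on the higher side). In Veh + CMS against Veh the same list had a median of 1.65, with 24 of 26 called higher at adjusted p under 0.05 in limma (3.79% of all genes in either direction), and in PHL + CMS against Veh + CMS a median of -1.06. Mobp, a structural protein of compact myelin, was at 98.96, 77.6 and 98.6 FPKM in Veh, 325, 433 and 320.3 in Veh + CMS and 111, 253 and 134 in PHL + CMS. Myrf, the transcription factor that drives myelin genes, was at 11.9, 9.25 and 14.6 in Veh, 34.8, 42.4 and 38.9 in Veh + CMS and 17.8, 29.6 and 15.1 in PHL + CMS. In both genes every PHL + CMS library was above Veh and below every Veh + CMS library, replicate 2 was by far the highest of its group, and the log2 fold changes against Veh were 0.77 (SE 0.27) and 0.76 (SE 0.25). Summed over the list, FPKM ran from 2947 to 3664 in Veh, from 9839.9 to 13164 in Veh + CMS and from 3914 to 8453 in PHL + CMS. Without PHL + CMS replicate 2 the median against Veh was 0.21, with 23 of 26 above 0 and 3 with p under 0.05. Without PHL + CMS replicate 3 it was 0.79 with 18 at p under 0.05, and without Veh replicates 1, 2 and 3 that number was 2, 1 and 4 at medians of 0.55, 0.46 and 0.62. Precursors of these cells had 11 of 11 above 0 and a median of 0.38, which was 0.23 without PHL + CMS replicate 2 and 0.65 without PHL + CMS replicate 3, with 11 of 11 above 0 in each case. Gpr17, a receptor of cells that are about to become oligodendrocytes, was at 18.6, 19.1 and 21.3 FPKM in Veh and 28.7, 41.3 and 23.6 in PHL + CMS, all above Veh, at 0.63 (SE 0.17). How much white matter each dissection held was not among the labels, and its part in these values was not tested.

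Microglial markers, those of the resident immune cells of the brain, had 17 of 25 below 0, a median of -0.10 and 4 with p under 0.05, all lower (5.78% of all genes). Trem2, a lipid-sensing receptor of microglia, was at 8.996, 9.71 and 12.05 FPKM in Veh, 9.71, 13.03 and 10.9 in Veh + CMS and 6.74, 7.74 and 6.85 in PHL + CMS. All PHL + CMS libraries lay below all libraries of the other groups, with a log2 fold change against Veh of -0.51 (SE 0.14) and an adjusted p of 0.292 in limma. Tyrobp, the signalling adaptor of Trem2, was at 19.9, 19.95 and 16.7 in Veh and 11.1, 14.4 and 13.4 in PHL + CMS, and Fcer1g, another such adaptor, at 24.9, 22.96 and 16.8 in Veh and 15.4, 15.7 and 16.7 in PHL + CMS. Both were lower in every PHL + CMS library, at -0.54 (SE 0.17) and -0.42 (SE 0.17). The rest of the list was not lower in the same way: Tmem119, P2ry12 and Csf1r, defining markers of resident microglia, stood at 0.20 (SE 0.17), -0.10 (SE 0.30) and 0.04 (SE 0.12). The median of the list was -0.02 without PHL + CMS replicate 1, where 2 members had p under 0.05, -0.16 without PHL + CMS replicate 2, -0.20 without Veh replicate 1 and -0.05 without Veh replicate 2. C1qa, which starts the classical complement cascade, was at 52.1, 56.5 and 55.4 FPKM in Veh, 51.1, 67.7 and 63.3 in Veh + CMS and 38.03, 46.5 and 42.2 in PHL + CMS, a log2 fold change against Veh of -0.38 (SE 0.11). Its partners C1qb and C1qc stood at -0.02 (SE 0.11) and -0.19 (SE 0.09). The complement list as a whole had 16 of 25 below 0 and a median of -0.05, which ran from -0.15 without PHL + CMS replicate 3 and -0.14 without Veh replicate 1 to -0.04 without PHL + CMS replicate 2. C3, the central component of complement, was at 2.04, 1.02 and 1.72 FPKM in Veh, 2.52, 4.9 and 6.22 in Veh + CMS and 1.04, 1.56 and 0.847 in PHL + CMS, so PHL + CMS overlapped Veh and lay below every Veh + CMS library. Its log2 fold change against Veh was -0.43 (SE 0.38). With the length trend removed the microglial median was -0.04 with 3 lower.

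Of the lists for astrocytes, endothelium, pericytes, meninges and striatum, each had at most 1 marker with p under 0.05. Astrocyte markers had 7 of 19 above 0 and a median of -0.04, which ran from -0.08 to 0.01 with single libraries left out, though Gfap, the filament of astrocytes, was at 86.2, 85.3 and 117 FPKM in Veh, 146, 229 and 216 in Veh + CMS and 119, 145 and 129 in PHL + CMS, above Veh in every PHL + CMS library by 0.45 (SE 0.19). Endothelial markers had a median of 0.04, meningeal ones of 0.12 and pericyte and smooth muscle ones of 0.44. The meningeal median was -0.32 without Veh replicate 3, -0.18 without PHL + CMS replicate 1 and -0.05 without PHL + CMS replicate 3, and it was 0.50, 0.38 and 0.23 without PHL + CMS replicate 2, Veh replicate 1 and Veh replicate 2, so no direction can be read from it. The endothelial median was -0.01 without PHL + CMS replicate 2, -0.02 without PHL + CMS replicate 3 and up to 0.20 in the other cases, and that of pericytes and smooth muscle was 0.23 without Veh replicate 3 and 0.27 without PHL + CMS replicate 3. Striatal markers had 14 of 16 below 0 and a median of -0.44, with list means of -0.69, -0.46 and 1.15 in the Veh libraries and -0.30 to -0.53 in PHL + CMS, and summed FPKM of 264 to 739 in Veh and 287 to 309 in PHL + CMS. In Veh + CMS the list means were 1.61, 0.87 and 0.36, with summed FPKM of 440 to 999. Adora2a, an adenosine receptor of striatal neurons, was at 2.76, 2.73 and 22.1 FPKM in Veh and 2.31, 3.1 and 3.08 in PHL + CMS, so that a single Veh library was high. None of the 16 markers was at 0 in any library. Without Veh replicate 3 the striatal median was 0.15, and without Veh replicate 1 it was -0.70. Interferon response genes had a median of 0.07, and Ifit3, induced by interferon, was at 1.22, 1.43 and 0.585 in Veh and 7.6, 1.51 and 1.79 in PHL + CMS, high in replicate 1, without which the median of the list was -0.30. That median ran up to 0.28 with other libraries left out.

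The genes that the study singled out in its RNA sequencing or as protein markers had fold changes against Veh between -0.58 and 0.44. Of 33 such genes 31 were tested, all but the cytokines Tnf and Il1b, which were under the filter, and 16 lay within 0.2 of 0 on the log2 scale. In all, 22 were below 0 and 9 above, 3 had p under 0.05, and the adjusted p in limma ran from 0.337 to 0.994. The study picked part of this set from these libraries, and that part is not independent evidence of a direction. Bdnf, the growth factor of synapses, was at 9.96, 9.85 and 9.79 FPKM in Veh, 6.91, 2.73 and 5.45 in Veh + CMS and 8.99, 9.13 and 10.7 in PHL + CMS. Its PHL + CMS libraries lay on both sides of the Veh libraries and above all Veh + CMS libraries, with log2 fold changes of -0.04 (SE 0.28) against Veh and 1.01 (SE 0.28) against Veh + CMS (limma, adjusted p = 0.167 for the latter). Syp, a protein of synaptic vesicles, stood at 0.00 (SE 0.12) and Dlg4, which encodes PSD-95, at 0.04 (SE 0.10). Those with p under 0.05 were C1qa, Dlgap4, a postsynaptic scaffold, and Syt5, a calcium sensor of vesicles. Dlgap4 was at 57.7, 48.3 and 53.9 FPKM in Veh and 61.7, 62.7 and 65.6 in PHL + CMS, all higher, at 0.25 (SE 0.08). Syt5 was at 156, 149 and 148 in Veh, 112, 85.97 and 108 in Veh + CMS and 125, 121 and 135 in PHL + CMS, so PHL + CMS stood between the other groups with no overlap, at -0.25 (SE 0.10) against Veh and 0.33 (SE 0.10) against Veh + CMS. Lamp1 and Lamp2, membrane proteins of lysosomes, stood at 0.24 (SE 0.11) and -0.03 (SE 0.12), and Litaf, a lysosomal protein induced by lipopolysaccharide, at 0.37 (SE 0.24). Aif1, which encodes the microglial protein Iba-1, stood at -0.27 (SE 0.18), Cd68 at -0.33 (SE 0.35) and Rela, the p65 subunit of NF-kB, at -0.02 (SE 0.12).

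**Figure D4:**
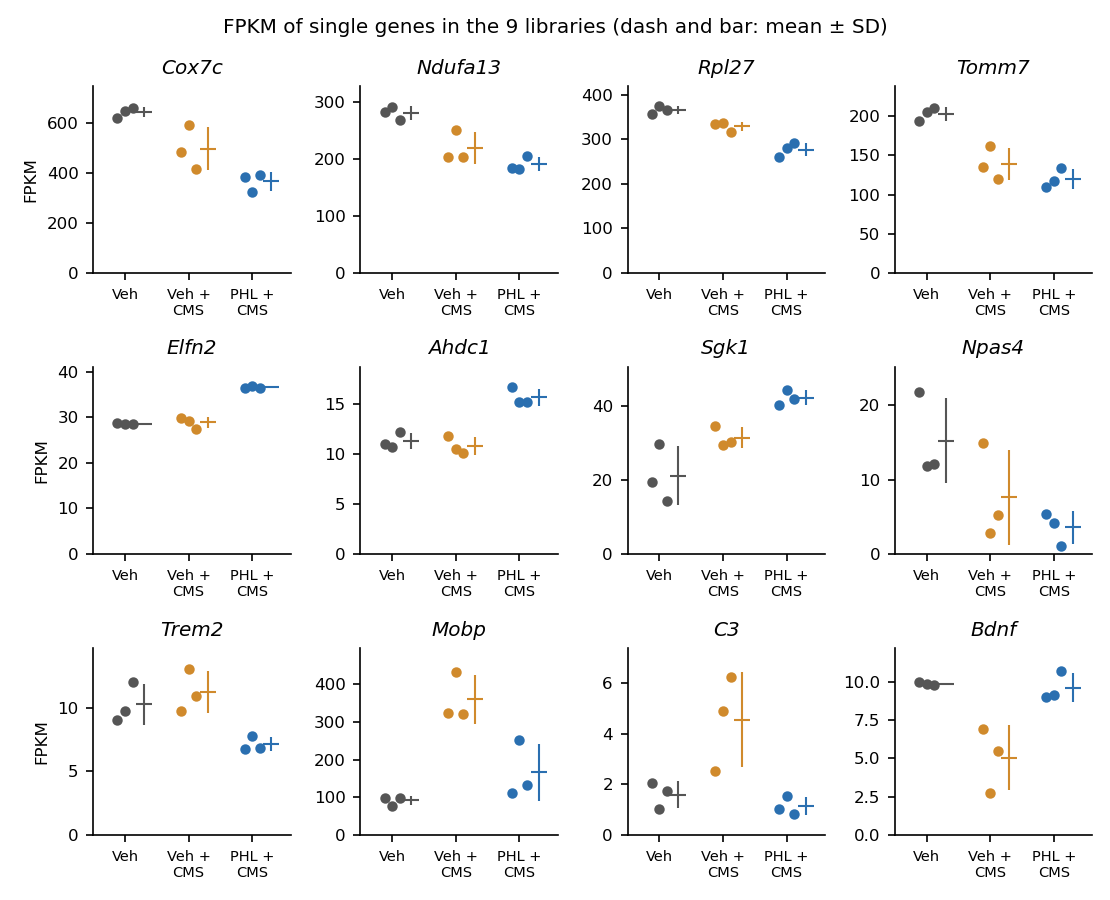
FPKM (vertical axes, from 0) of 12 genes in the 3 Veh, 3 Veh + CMS and 3 PHL + CMS libraries, 1 point per library, with the mean and SD at the right of each group. Cox7c, Ndufa13, Rpl27 and Tomm7 lie lower in PHL + CMS than in Veh, Elfn2, Ahdc1 and Sgk1 higher, Npas4 and Trem2 lower, Mobp is high in PHL + CMS replicate 2, and C3 and Bdnf overlap Veh.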

How the data were processed

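RNA from the mPFC was sequenced in 9 libraries, grouped by their labels into 3 each of Veh, Veh + CMS and PHL + CMS. Library preparation used a NEBNext Ultra kit and 1 µg of RNA per library. Use of strand in counting is not given in the sources used here, so overlapping genes on opposite strands cannot be told apart. The submitters' processing notes name HISAT2 and the build Rnor_6.0. For versions, the counter and the annotation the entry is "not given in the sources used here". What the authors deposited was FPKM per gene in a single table, with gene lengths and positions, and no counts were used from elsewhere. FPKM multiplied by gene length were whole multiples of 1 step in 100% of values (tolerance 1e-06), which gave reads per gene and the depth of each library. Of all genes, 18693 averaged under 10 reads, and the depth does not allow small differences to be seen in them.

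After a filter of 0.5 on the average FPKM (16159 genes kept, 18304 left out), genes were fitted on log2(FPKM + 0.1) with limma 3.58.1 in R 4.3.3, all 9 libraries sharing one estimate of the spread, with the prior variance allowed to depend on level, two-sided tests and Benjamini-Hochberg adjustment. The 3 contrasts share libraries, so their values are set side by side and no correlation between them is given. The fit was tested on simulated data. Gene lists (52, with 6 more added later) matched 1346 of 1402 symbols, and 56 were not matched. The members and lists were chosen with earlier results of these data known. Genes named are the 15 with the smallest p in each direction among genes with a symbol and groups that do not overlap, up to 4 per list with the smallest p, the genes the study named, and others marked in the text, of which some are not reported here. Promoter windows came from RefSeq (GRCr8) and gene positions from the table (Rnor_6.0). The alternatives were the pseudocount, the filter, scaling, moderation, library weights, voom, a replicate block, only these 2 groups in the fit, coding genes only, a 2-fold limit, each library left out and, chosen after seeing the data, removal of the length trend by loess. Figures were drawn with matplotlib 3.10.9 in Python 3.11.15.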

Additional observations from a re-analysis of the deposited data

How the results depend on the processing

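The count of genes at adjusted p under 0.05 in limma, 0 with the settings reported, was 0 under all other pseudocounts, scalings, moderations, weights, voom, coding genes only and removal of the length trend. Without a filter on low values it was 4, namely Mir485, higher, and Mir345, AABR07059003.1 and the mitochondrial tRNA gene AY172581.6, lower, all with few reads. Leaving out each library gave 0 to 1, with Ebna1bp2 without PHL + CMS replicate 1, LOC100910418 without PHL + CMS replicate 2 and Tsen34 without Veh replicate 3. The count at unadjusted p under 0.05 and 1.5-fold, 378, was 664 without a filter, 250 for coding genes only, 164 at 2-fold and 335 to 534 with a library left out. With the length trend removed it was 339. The share of genes whose groups do not overlap, 17.5%, was 25.7% to 31.3% with a library left out, where fewer libraries have to be ordered. Of 58 lists, 31 kept the sign of their median under all alternatives, and the other 27 held all of the 63 values, of 1218 over the 58 lists, that had the opposite sign. Of 251 named genes, 51 of 5253 values had the opposite sign and 1, the tRNA gene without a filter, passed the adjusted threshold. The cause of these moves was not tested. Libraries with the same replicate number did not deviate together (correlations of -0.00, -0.10 and -0.09), so the replicate block is a check only, and it gave 0 genes at adjusted p and 370 at unadjusted p and 1.5-fold.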

Other observations

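Among groups not described above, 27 heat shock chaperones had a median log2 fold change of -0.06 and 25 genes of the unfolded protein response of 0.02 in PHL + CMS against Veh. With single libraries left out these medians ran from -0.08 to 0.01 and from -0.03 to 0.12. The 25 genes of cholesterol synthesis had 20 above 0 and a median of 0.09, led by Srebf2, the transcription factor of the pathway, at 0.26 (SE 0.08). Without Veh replicate 3 this list had 13 above 0 and 12 below, with a median of 0.005. The 45 potassium channel genes had a median of -0.03, with 22 above 0 and 23 below, and medians of -0.05 to 0.07 with single libraries left out. Of 18 glycolytic genes 11 lay below 0, with a median of -0.06 (-0.09 to -0.02 with single libraries left out) and Ldhb, a lactate dehydrogenase subunit, at -0.23 (SE 0.09). With quantile normalization 12 of the glycolytic genes lay above 0 and their median was 0.05, so the direction depends on the scaling. The 37 genes of transforming growth factor and Wnt signalling had 27 above 0 and a median of 0.15, and Tcf7l2, a transcription factor of the Wnt pathway, stood at 0.58 (SE 0.21). The 22 clock genes had a median of 0.04, with 11 above 0 and 11 below without PHL + CMS replicate 1, and none had p under 0.05 with all libraries. In none of these genes was the adjusted p in limma under 0.05.

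Ttr, a transport protein abundant in choroid plexus, was at 0.178, 0.284 and 0.1 FPKM in Veh, 1.2, 2.47 and 2.06 in Veh + CMS and 0.406, 0.81 and 0.38 in PHL + CMS. The PHL + CMS libraries stood between the other groups with no overlap, at low levels in all, with a log2 fold change of 1.12 (SE 0.45) against Veh. The 8 markers of choroid plexus and ependyma as a list had a median of -0.40, and leaving out Veh replicate 3 made it 0.31, Veh replicate 2 -0.80 and PHL + CMS replicate 2 -0.21. Gstm5, a glutathione transferase, was at 2.21, 0.694 and 0.441 FPKM in Veh and 2.44, 37.7 and 1.53 in PHL + CMS, so a single library carried its log2 fold change of 2.43 (SE 1.06).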
